A study of Homo sapiens with 4 samples.

Results

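The mitochondrial ribosome is built on 3 RNAs that are encoded side by side on the mitochondrial chromosome, and the reads on their rows are described here. The members were taken by gene identifier from the deposited ribosome profiling count table. They are MT-RNR1 (ENSG00000211459.2), MT-RNR2 (ENSG00000210082.2) and MT-TV (ENSG00000210077.1), 3 of 37 mitochondrial rows and of 78724 rows in all, and all 3 held enough reads to be tested. The cells were A375, an established human melanoma line. They were kept for 48 h in arginine-free medium, made from RPMI 1640 lacking amino acids to which glucose, pyruvate and the other amino acids were added back (2 libraries), or in control medium, whose make-up the labels do not give (2 libraries). The labels do not say whether the replicates were separate cultures, and a p-value here reflects no more than the spread of these 4 libraries, which can be technical. The fitted tests pool that spread over rows, so their p-values do not rest on a row's own spread alone. The series title places the study among tumours that lack ASS1, an enzyme of arginine synthesis.

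MT-RNR1 encodes the rRNA of the small mitoribosomal subunit and MT-RNR2 that of the large subunit. The tRNA for valine, MT-TV, lies between them. In human mitoribosomes it also sits in the large subunit as a structural RNA, in the place that the small extra rRNA takes in cytosolic and bacterial ribosomes. All 3 are copied from the same DNA strand as parts of a long precursor RNA, and the tRNA is released when RNase P cuts at its front end and ELAC2 at its back end. Ribosome profiling digests RNA with nuclease and sequences the pieces that ribosomes protect. Pieces of rRNA and tRNA can be sequenced with them. Reads on these rows are therefore taken as pieces of the ribosome's own RNA or of a tRNA. They are not taken as footprints of translation on an mRNA, and their origin was not tested.

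In the deposited table, whose places match GRCh38, MT-RNR1 spans chrM:648-1601 (954 bases), MT-TV spans chrM:1602-1670 (69 bases) and MT-RNR2 spans chrM:1671-3229 (1559 bases), all on the plus strand and each a single exon. The rows touch each other with no gap. The counting command in the file header carries no option to count a read on more than 1 row, and a read that crosses a border between rows is then left out, which bears most on the short MT-TV row. The command also sets no strand. The submitters' processing notes name the builds GRCh37 and hg19 for the reads, and whether mitochondrial positions are the same there was not checked. Ribosomal RNA was not depleted at the bench, per the labels' protocols. Whether reads of rRNA were set aside before counting is not given in the sources used here, and such a step would lower the 2 rRNA rows and not necessarily the tRNA row.

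Total counts were 234766 and 192006 in arginine-free replicates 1 and 2, and 105004 and 217989 in control replicates 1 and 2. The 37 mitochondrial rows took 18.2% and 24.6% of the reads in arginine-free medium, and 16.5% and 26.2% in control medium. No library could be checked for its cell type from these counts. Of 7 rows matched by place to melanocytic markers, those of MITF, TYR, PMEL and SOX10 were listed at 0, the list summed to 1 and 2 reads in arginine-free medium and to 23 and 36 in control medium, and the reads of a nuclear row need not come from its gene, since the builds differ. The rows of fibroblast and epithelial markers were all at 0. Of 4 rows of leukocyte markers 3 were at 0, and the list held 1 read, in control replicate 2.

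The 3 members were the most heavily read rows of the whole table in arginine-free replicates 1 and 2. Together they held 16.6% and 23.2% of all reads in arginine-free medium, and 14.0% and 23.8% in control medium. In control medium MT-TV and MT-RNR1 again took the first places, and MT-RNR2 was the fifth in replicate 1 and the fourth in replicate 2. Of the reads on the mitochondrial chromosome alone, the 3 rows held 91.1% and 94.5% in arginine-free medium, and 84.9% and 91.1% in control medium. The summed share of the 3 rows thus overlapped between the media, with means of 19.9% ± 4.71 in arginine-free and 18.9% ± 6.97 in control medium (SD, n = 2 each).

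Reads on both rRNAs were higher in arginine-free medium. MT-RNR2 rose 3.46-fold and MT-RNR1 rose 2.13-fold by the fitted change. They were the 2 mitochondrial rows that passed the test on the higher side. MT-TV, the row with most reads in every library, did not pass. Both rRNA increases were carried largely by arginine-free replicate 2, and the size of each depended on it.

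MT-RNR2, the large-subunit rRNA, held 5538 and 14467 reads in arginine-free replicates 1 and 2, and 1709 and 3333 in control replicates 1 and 2. As shares of all counted reads these were 2.36% (95% Wilson interval 2.30 to 2.42) and 7.53% (7.42 to 7.65) in arginine-free medium, against 1.63% (1.55 to 1.71) and 1.53% (1.48 to 1.58) in control medium. Both arginine-free libraries lay above both control libraries, the control libraries were close together, and arginine-free replicate 2 stood far above the other 3. Such intervals cover counting error within a library and not the spread between libraries. Amplified fragments without molecular identifiers are not independent molecules, so the intervals can be too narrow even for counting error.

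The test across libraries used CPM, counts scaled to a common total over the tested rows with TMM factors, which align the libraries on the bulk of their rows. On this scale MT-RNR2 had 57427 ± 47295 CPM in arginine-free and 16600 ± 698 CPM in control medium (SD, n = 2 each). The fitted log2 change was 1.79 (SE 0.46, with a Benjamini-Hochberg adjusted p of 0.00881 from the quasi-likelihood test of edgeR). Without arginine-free replicate 2 it was 0.59 and still passed (edgeR adjusted p = 0.0406), without arginine-free replicate 1 it was 2.50, and the call ended with DESeq2 (adjusted p = 0.15). In bulk libraries, a different number of cells holding an RNA and a different amount of it in each cell cannot be told apart. The edgeR p and SE also draw on the spread of the other tested rows, and not on that of MT-RNR2 alone.

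MT-RNR1, the small-subunit rRNA, held 9225 and 13471 reads in arginine-free replicates 1 and 2, and 3690 and 4628 in control replicates 1 and 2. Its share of all reads was 3.93% (95% Wilson interval 3.85 to 4.01) and 7.02% (6.90 to 7.13) in arginine-free medium, against 3.51% (3.40 to 3.63) and 2.12% (2.06 to 2.18) in control medium. The groups did not overlap, but the gap between arginine-free replicate 1 and control replicate 1 was small beside the spread within either medium. MT-RNR1 had 62283 ± 31580 CPM in arginine-free and 29256 ± 7807 CPM in control medium (SD, n = 2 each), and its fitted log2 change was 1.09 (SE 0.37, adjusted p = 0.0335 in edgeR). This call ended without arginine-free replicate 2, where the log2 fold change was 0.52 (edgeR adjusted p = 0.114), without control replicate 2, where it was 0.86 (edgeR adjusted p = 0.108), and with the replicate number as a block (1.02, edgeR adjusted p = 0.0967).

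MT-TV held 24142 and 16669 reads in arginine-free replicates 1 and 2, and 9277 and 43998 in control replicates 1 and 2. Its share of all reads was 10.3% (95% Wilson interval 10.2 to 10.4) and 8.68% (8.56 to 8.81) in arginine-free medium, and 8.83% (8.66 to 9.01) and 20.2% (20.02 to 20.35) in control medium. Control replicate 2 was high, the other 3 libraries lay between 8.68% and 10.3%, and the groups overlapped. The row had 104628 ± 103 CPM in arginine-free and 156539 ± 97734 CPM in control medium (SD, n = 2 each). The fitted log2 change of -0.58 (SE 0.41, adjusted p = 0.294 in edgeR) did not pass, and without control replicate 2 its sign turned, to 0.28 (edgeR adjusted p = 0.654). A value that misses the threshold does not show that MT-TV was the same in both media.

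**Figure D1:**
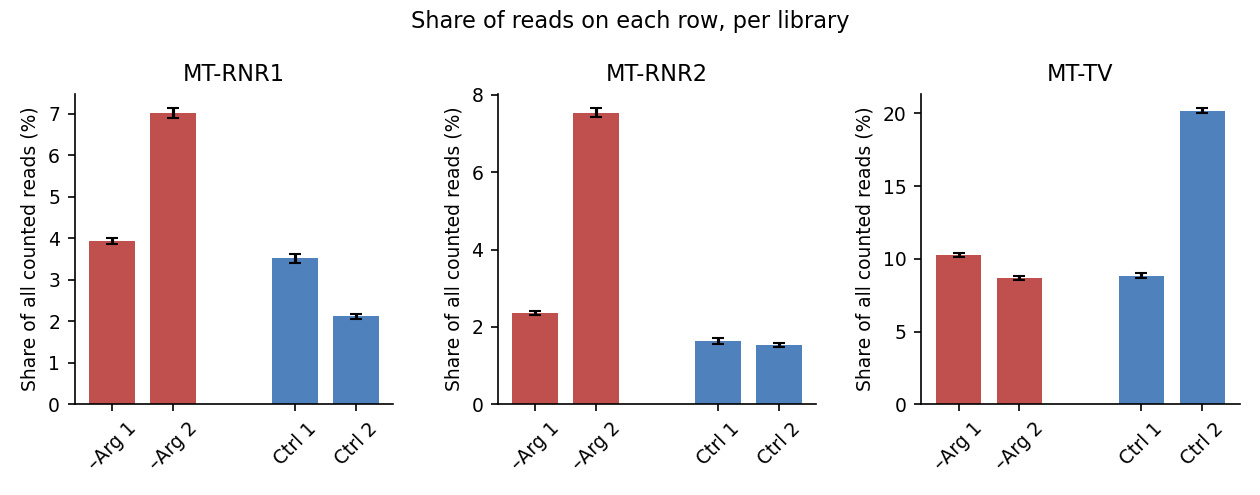
Share of all counted reads (%, y axis) on MT-RNR1, MT-RNR2 and MT-TV in each library (x axis; –Arg, arginine-free; Ctrl, control; the number is the replicate), with 95% Wilson intervals as error bars. Both rRNAs were highest in arginine-free replicate 2, at 7.02% and 7.53%, and MT-TV was highest in control replicate 2, at 20.2%.

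Among the members, 2 of 3 were called higher (edgeR, adjusted p under 0.05) and none was called lower, against 16% called higher and 16.9% called lower among all 2526 tested rows, or 33% called in either direction. By the plainer criterion that both arginine-free libraries lie above both control libraries in CPM, 33.1% of all tested rows qualified, as did 2 of the 3 members. The rRNA changes were not the largest in the table. MT-RNR2 took place 136 and MT-RNR1 place 352 when all 2526 tested rows were ordered from the highest log2 fold change down.

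The other mitochondrial rows lay mostly on the lower side. Of 33 tested mitochondrial rows, 6.06% were higher, namely the 2 rRNAs, and 36.4% were lower. The 13 protein-coding rows had a median of -0.62 for this log2 value and ranged from -1.43 to -0.02, with 3 lower and 10 that did not pass. Of the 21 other tRNA rows 17 were tested, with 9 lower, 8 that did not pass and a median of -0.85. The median over all tested rows of the table was -0.03. The rRNAs therefore stood at the top of the mitochondrial order of log2 fold changes, MT-RNR2 first and MT-RNR1 next, and MT-TV took place 15 of 33.

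**Figure D2:**
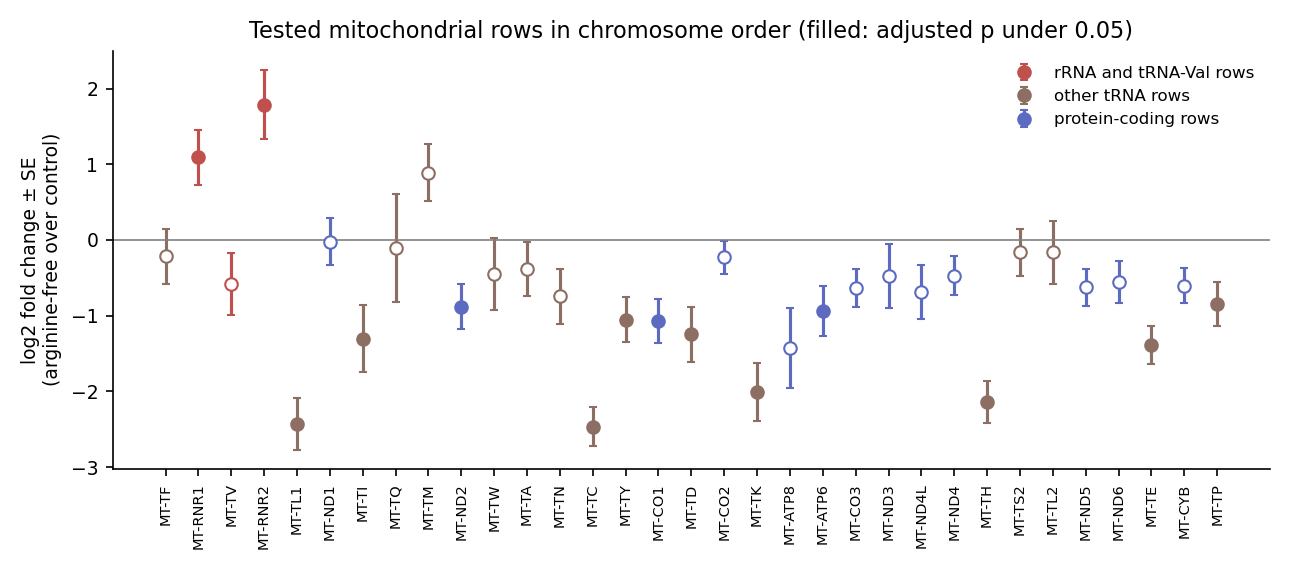
log2 fold change with its standard error (y axis, arginine-free over control, edgeR) for the 33 tested mitochondrial rows in chromosome order (x axis). Filled points had an adjusted p under 0.05. MT-RNR1 (1.09) and MT-RNR2 (1.79) are the filled points above 0, and MT-TV between them is at -0.58 and open.

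The rows on either side of the 3 members did not follow the rRNAs. MT-TF, the phenylalanine tRNA in front of MT-RNR1 (chrM:577-647), held 187 and 252 reads in arginine-free medium, and 82 and 379 in control medium, and its log2 change was -0.22 (SE 0.36, adjusted p = 0.68 in edgeR). MT-TL1, a leucine tRNA directly behind MT-RNR2 (chrM:3230-3304), held 15 and 24 reads in arginine-free medium, and 60 and 108 in control medium. It fell, by -2.43 on the log2 scale (SE 0.34, adjusted p = 0.000109 in edgeR), next to the row with the highest mitochondrial fold change. The order of the 5 neighbouring rows along the chromosome was thus -0.22, 1.09, -0.58, 1.79 and -2.43 on the log2 scale. Neighbours that share a precursor RNA differed in sign, with the test passed at MT-RNR1, MT-RNR2 and MT-TL1. MT-TF and MT-TV did not pass, and the sign of MT-TV turned without control replicate 2. The difference between neighbouring rows was not itself tested in this fit.

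Set against other mitochondrial rows of the same library, the rRNAs were also higher in arginine-free medium. These ratios do not depend on a library's total. MT-RNR2 held 2.09 and 12.8 times the reads of the 13 protein-coding rows together in arginine-free replicates 1 and 2, against 1.00 and 1.20 times in control replicates 1 and 2. MT-RNR1 held 3.47 and 11.9 times those reads in arginine-free medium, against 2.16 and 1.67 times in control medium. Both rRNAs lay above the control libraries in both arginine-free libraries. In arginine-free replicate 2 the protein-coding rows were also low, at 0.589% of all reads against 1.13% in replicate 1 of that medium, and at 1.63% and 1.27% in control medium. What part this has in the high ratio there was not tested.

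The ratios to the 21 other tRNA rows together separated the rRNAs in the same way. MT-RNR1 held 8.14 and 9.32 times their reads in arginine-free medium, against 4.10 and 2.02 times in control medium, a difference in mean log2 ratio of 1.60. MT-RNR2 held 4.89 and 10.0 times their reads in arginine-free medium, against 1.90 and 1.45 times in control medium, a difference of 2.07. The 21 tRNA rows were themselves lower, at 0.483% and 0.753% of all reads in arginine-free medium, against 0.857% and 1.05% in control medium. What part this has in the ratios of the rRNAs was not tested. For MT-TV the ratio was 21.3 and 11.5 in arginine-free medium, and 10.3 and 19.2 in control medium, and the groups overlapped. MT-TV took 95.5% and 92.0% of all mitochondrial tRNA reads in arginine-free medium, and 91.2% and 95.04% in control medium.

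**Figure D3:**
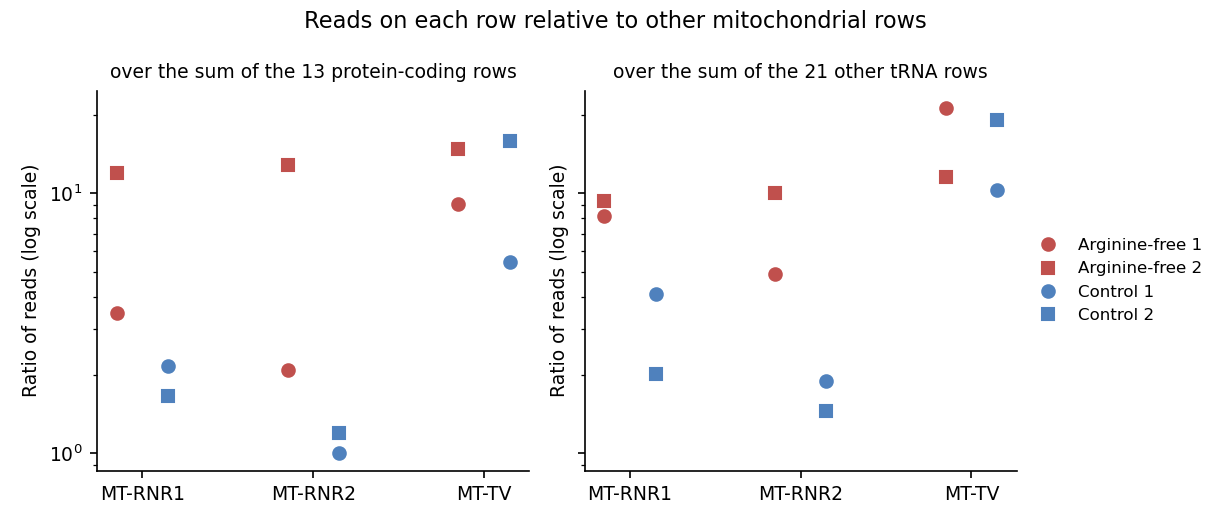
Ratio of the reads on each row to the summed reads of the 13 protein-coding rows (left) and of the 21 other tRNA rows (right), on a log axis, with 1 point per library. For MT-RNR1 and MT-RNR2 both arginine-free libraries lie above both control libraries in both panels, and for MT-TV they overlap.

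Among the members themselves, the mean ratio of the tRNA to the rRNAs was lower in arginine-free medium, by a difference that 4 libraries cannot bring past a permutation test. MT-TV held 4.36 and 1.15 times the reads of MT-RNR2 in arginine-free replicates 1 and 2, against 5.43 and 13.2 times in control replicates 1 and 2, and the groups did not overlap. Relative to MT-RNR1 the values were 2.62 and 1.24 in arginine-free medium, and 2.51 and 9.51 in control medium, and these overlapped because arginine-free replicate 1 and control replicate 1 were nearly equal. Over both rRNAs together MT-TV stood at 1.64 and 0.597 in arginine-free medium, and at 1.72 and 5.53 in control medium. The separation of the groups by this measure was narrow between the replicates numbered 1 and wide between those numbered 2.

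The balance of the 2 rRNAs did not separate the media. MT-RNR2 held 0.600 and 1.07 times the reads of MT-RNR1 in arginine-free medium, and 0.463 and 0.720 times in control medium, and the groups overlapped. The difference in mean log2 ratio of 0.48 lay between the SD of the arginine-free libraries (0.59) and that of the control libraries (0.45). It was 0.06 without arginine-free replicate 2 and 0.16 without control replicate 1, against 0.89 without arginine-free replicate 1 and 0.79 without control replicate 2. A larger change of MT-RNR2 than of MT-RNR1 is therefore not shown. In all, 10 log2 ratios of counts (0.5 added to each count) were compared by an exact two-sided permutation test over libraries. With 2 libraries against 2 this test cannot give a p under 0.333, and no ratio had an adjusted p under 0.556. The exact permutation p of the shares of all reads was 0.333 for each rRNA and 0.667 for MT-TV (n = 2 each), or 0.5 and 0.667 when adjusted over these 3 shares.

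**Figure D4:**
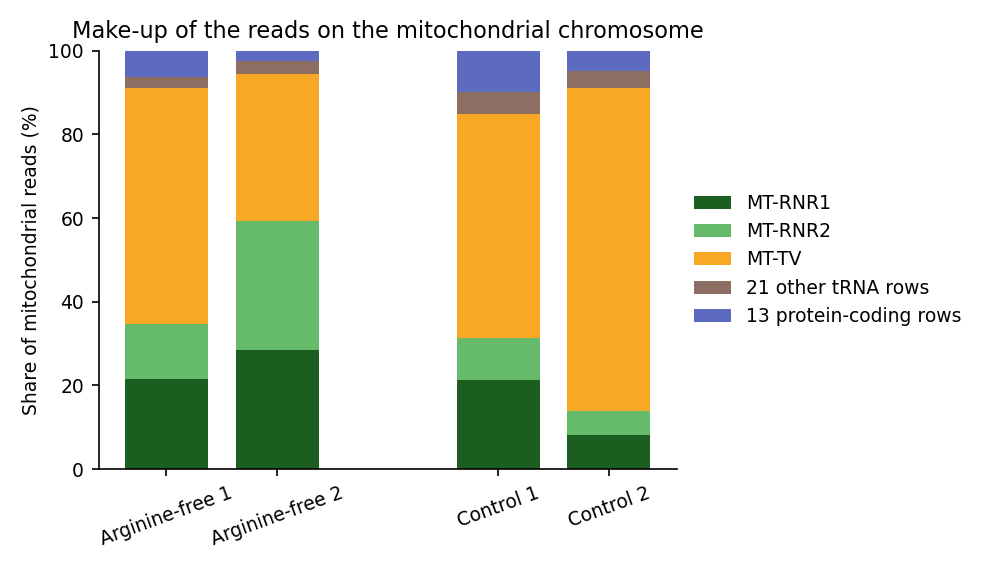
Make-up of the reads on the mitochondrial chromosome (%, y axis) in each library (x axis, with the replicate number), stacked by row or class of rows. MT-TV took 56.5% and 35.3% in arginine-free medium, and 53.7% and 77.1% in control medium, and the 3 members together took between 84.9% and 94.5%.

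Per base of row length, the tRNA far exceeded the rRNAs it lies between. MT-TV held 350 and 242 reads per base in arginine-free replicates 1 and 2, and 134 and 638 in control replicates 1 and 2. MT-RNR1 held 9.67 and 14.1 reads per base in arginine-free medium, and 3.87 and 4.85 in control medium. MT-RNR2 held 3.55 and 9.28 in arginine-free medium, and 1.10 and 2.14 in control medium. Within a library MT-TV was thus 36.2-fold and 17.1-fold denser than MT-RNR1 in arginine-free medium, and 34.8-fold and 131-fold denser in control medium. A mitoribosome holds the 3 RNAs in equal number, and the tRNA also exists free in the mitochondrion, where it is charged with valine. Reads per base were not equal in any library. They count digested and amplified pieces and not molecules, and the cause of the difference was not tested.

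MT-RNR1 was denser than MT-RNR2 in all 4 libraries, 2.72-fold and 1.52-fold in arginine-free medium, and 3.53-fold and 2.27-fold in control medium. MT-TV was also far denser than any other mitochondrial tRNA. The next densest was MT-TM, the methionine tRNA, in arginine-free medium and MT-TP, the proline tRNA, in control medium. MT-TV exceeded them 69.0-fold and 29.1-fold in arginine-free medium, and 46.2-fold and 107-fold in control medium. MT-TM was also the largest other tRNA row by mean count, at 345 and 565 reads in the arginine-free libraries, and 91 and 354 in the control libraries. Its log2 change of 0.89 (SE 0.37, adjusted p = 0.08 in edgeR) did not pass. The largest protein-coding row was MT-CO1, the first subunit of cytochrome oxidase, which held 660 and 238 reads in arginine-free medium, and 536 and 806 in control medium. It fell, by -1.07 on the log2 scale (SE 0.29, adjusted p = 0.0114 in edgeR).

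The pattern over the 4 libraries was compared among mitochondrial rows by the distance between log2 CPM values centred on each row's mean, where a small distance means a like pattern. Each member was set against 30 rows with a mean of at least 10 reads. The 2 rRNAs were each other's nearest row, at a distance of 0.88. MT-TM came next for both, at 1.16 from MT-RNR1 and 1.05 from MT-RNR2, and then MT-TS2, a serine tRNA, for MT-RNR1 (1.38) and MT-TL2, a leucine tRNA, for MT-RNR2 (1.75). The rows nearest to MT-TV were MT-TN, the asparagine tRNA (0.70), MT-TF (0.74) and MT-TL2 (0.87). The rRNAs were not among the nearest rows of MT-TV, although all 3 adjoin. These distances rest on 4 libraries and rows of unequal depth and carry no test.

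Nuclear copies of MT-RNR2 could in principle share its reads. The RefSeq table lists 13 such MTRNR2L pseudogenes, and the 6 rows that overlap their places held no read. Since the reads were placed on another build, this does not show where reads of such copies went.

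Nuclear genes that make, cut, modify and use these RNAs could be followed only in small part. Of 122 rows matched by place to genes of mitochondrial transcription, tRNA release, rRNA modification, valine charging and the mitoribosome's proteins, 90 were listed at 0. The 10 tested rows had 1 higher, 1 lower and a median log2 fold change of -0.13. Over all 2526 tested rows 16% were called higher and 16.9% lower, so these counts do not set the list apart. A row was read as its gene where at most 1 in 3 of the 21 protein-coding rows centred on it (fewer at a chromosome's end) were at 0, a limit set after the data were seen, and 4 tested rows met it. MRPL36, a protein of the large mitoribosomal subunit, held 86 and 69 reads in arginine-free medium, and 20 and 31 in control medium. It rose, by 1.22 on the log2 scale (SE 0.28, adjusted p = 0.00478 in edgeR). The adjusted p was 0.0667 in edgeR without control replicate 2 and 0.0627 in DESeq2, where it did not pass. The lower row of the list fell outside this limit, so its reads need not come from the gene at its place, and it is named after its values were seen. It is the row at the place of MALSU1, an assembly factor of the large mitoribosomal subunit, with 109 and 94 reads in arginine-free medium, against 222 and 404 in control medium (log2 change -1.98, SE 0.23, adjusted p = 1.63e-05 in edgeR).

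The other 3 rows inside the limit did not pass. POLRMT, the RNA polymerase that copies mitochondrial DNA, held 113 and 108 reads in arginine-free medium, and 79 and 122 in control medium, and its log2 change was -0.23 (SE 0.23, adjusted p = 0.481 in edgeR). MRPL54, another large-subunit protein, changed on the log2 scale by 0.10 (SE 0.34). FASTKD3, a mitochondrial RNA-binding protein, had -0.29 (SE 0.53). Each of these 3 values changed sign when a single library was left out.

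**Figure D5:**
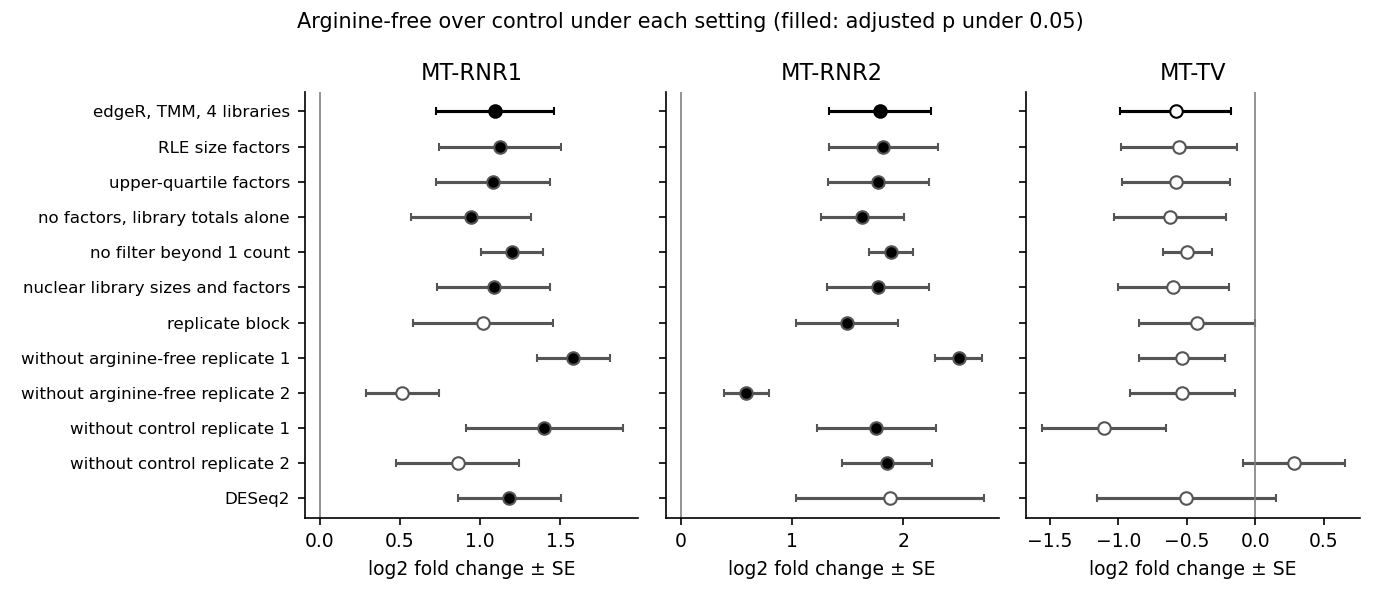
log2 fold change with its standard error (x axis, arginine-free over control) for the 3 members under each setting (y axis). Filled points had an adjusted p under 0.05. MT-RNR1 ranged from 0.52 to 1.58 and MT-RNR2 from 0.59 to 2.50, all above 0, and MT-TV ranged from -1.10 to 0.28 with no filled point.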

How the data were processed

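The authors deposited whole-number counts per row, which featureCounts 2.0.1 made over GENCODE exons with no strand option, per the file headers. Bowtie2 2.5.2, TopHat2, cutadapt, GRCh37 and hg19 are listed without roles in the submitters' processing notes. Paired-read counting was switched on in the header, although single reads were made per the labels' protocols, and what this does to the counts was not tested. All 37 mitochondrial rows were named by identical start and end in the RefSeq table of GRCh38.p14, and nuclear rows by mutual best overlap.

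All 4 libraries entered 1 fit with edgeR 4.0.16 (R 4.3.3), using TMM, filterByExpr by group, the quasi-likelihood test and Benjamini-Hochberg adjustment over 2526 rows at 0.05. Each SE is the size of the log2 change divided by the root of its F statistic. DESeq2 1.42.0, RLE, upper-quartile and no factors, no filter, nuclear library sizes, a replicate block and leaving out each library were alternatives. Shares carry 95% Wilson intervals (scipy 1.17.1). A count of 0 allows up to 3 counts, between 12.8 and 28.6 CPM of all rows.

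The members and lists were chosen with earlier results of these data known. Besides the members, the rule for named genes takes both flanking rows, the 3 mitochondrial rows nearest in pattern to each member, the largest other tRNA and protein-coding rows, and pathway rows with at least 20 reads that could be read as genes. MT-TP, MALSU1 and the marker rows fall outside it and were named after their values were seen.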

Additional observations from a re-analysis of the deposited data

How the results depend on the processing

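MT-RNR2 passed in 10 of 11 alternatives and MT-RNR1 in 8 of 11, both always higher in arginine-free medium, and MT-TV passed in none. MT-RNR1 no longer passed with the replicate block (log2 fold change 1.02), and MT-RNR2 no longer passed with DESeq2 (1.88). Leaving out each library in turn gave 0.52 to 1.58 for MT-RNR1, 0.59 to 2.50 for MT-RNR2 and -1.10 to 0.28 for MT-TV. Where a medium then had a single library, it was assumed to vary like the other medium. The difference in the share of MT-TV ran from -10.7 to 0.648 percentage points. The log2 ratio of MT-TV differed by -0.45 to 1.09 against the protein-coding rows and by -0.29 to 0.61 against the other tRNA rows. No other ratio or share of the members reversed, including with denominators outside MT-TV, of nuclear reads or of mitochondrial reads. Ratios per base differ by a fixed factor in every library, so that setting could not change the difference between the media. Without 1 library POLRMT, FASTKD3 and MRPL54 ran from -0.41 to 0.052, from -0.95 to 0.37 and from -0.35 to 0.60.

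With DESeq2, 162 rows were higher and 147 lower over the table, and 1 and 5 on the mitochondrial chromosome, against 405 and 428, and 2 and 12. Leaving out each library gave 270 to 418 higher and 243 to 389 lower rows over the table, and 1 to 3 and 7 to 16 mitochondrial ones. The replicate numbers share only a number (correlation of deviations -0.0627 over 2493 nuclear rows), and the block gave 354 higher and 372 lower rows. The cause of these shifts was not tested. Within a medium, the Wilson intervals of each member's shares did not overlap, apart from those of MT-RNR2 in control medium. What limits precision was not tested.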
